A study of Gallus gallus with 32 samples.

Results

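Collagens are secreted or membrane-bound proteins whose chains wind into triple helices, and each chain is encoded by a gene of its own. The collagen genes were taken as all gene IDs made of COL, a type number, A and a chain number, which gave 41 genes of 25619 in the expression table. Their transcripts were measured by poly(A) RNA sequencing in the liver of broiler chickens of the Arbor Acres line, which is bred for meat. Values are TPM, which divide reads by transcript length and scale each library to a fixed total, so levels can be compared between genes. There were 32 libraries, 8 from each of 4 diets, a control with 0 g/kg of added arginine and diets with 1.8, 9 and 18 g/kg of added arginine. The labels do not state whether each library is a bird of its own, and p-values here reflect only the variation among the sequenced libraries, which may be technical. Age, sex and the arginine content of the basal diet are not given in the sources used here, and the sequencing depth is unknown because only TPM were used.

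In the liver, collagens form the capsule, the portal tracts and vessel walls, and a thin matrix between the sinusoids and the hepatocytes. Fibrillar chains (types I, III and V) build the tensile fibers, type IV builds the network of basement membranes, and type VI forms beaded filaments that link cells to fibers. In mammalian liver, stellate cells and portal fibroblasts make most fibrillar collagen. Arginine can be converted through ornithine to proline, an amino acid that is abundant in collagen.

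The tissue was liver by its markers. The summed TPM of 18 hepatocyte marker genes ran from 104147 to 200525 per library, led by albumin (ALB). The collagen genes together took 113 to 439 TPM, which was 0.0113% to 0.0440% of the table. In the summed tissue RNA, fewer cells of a type and less RNA per cell cannot be told apart. Of the 41 genes, 30 were above 0 TPM in every library, 11 were listed at 0 in at least 1 library and 4 were listed at 0 in most libraries. Testing required an average of 1 TPM or more, which 17 collagen genes and 11339 genes in all met. The last collagen gene inside this limit was COL8A1 at 1.07 TPM, and the first outside was COL27A1 at 0.806 TPM.

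**Figure D1:**
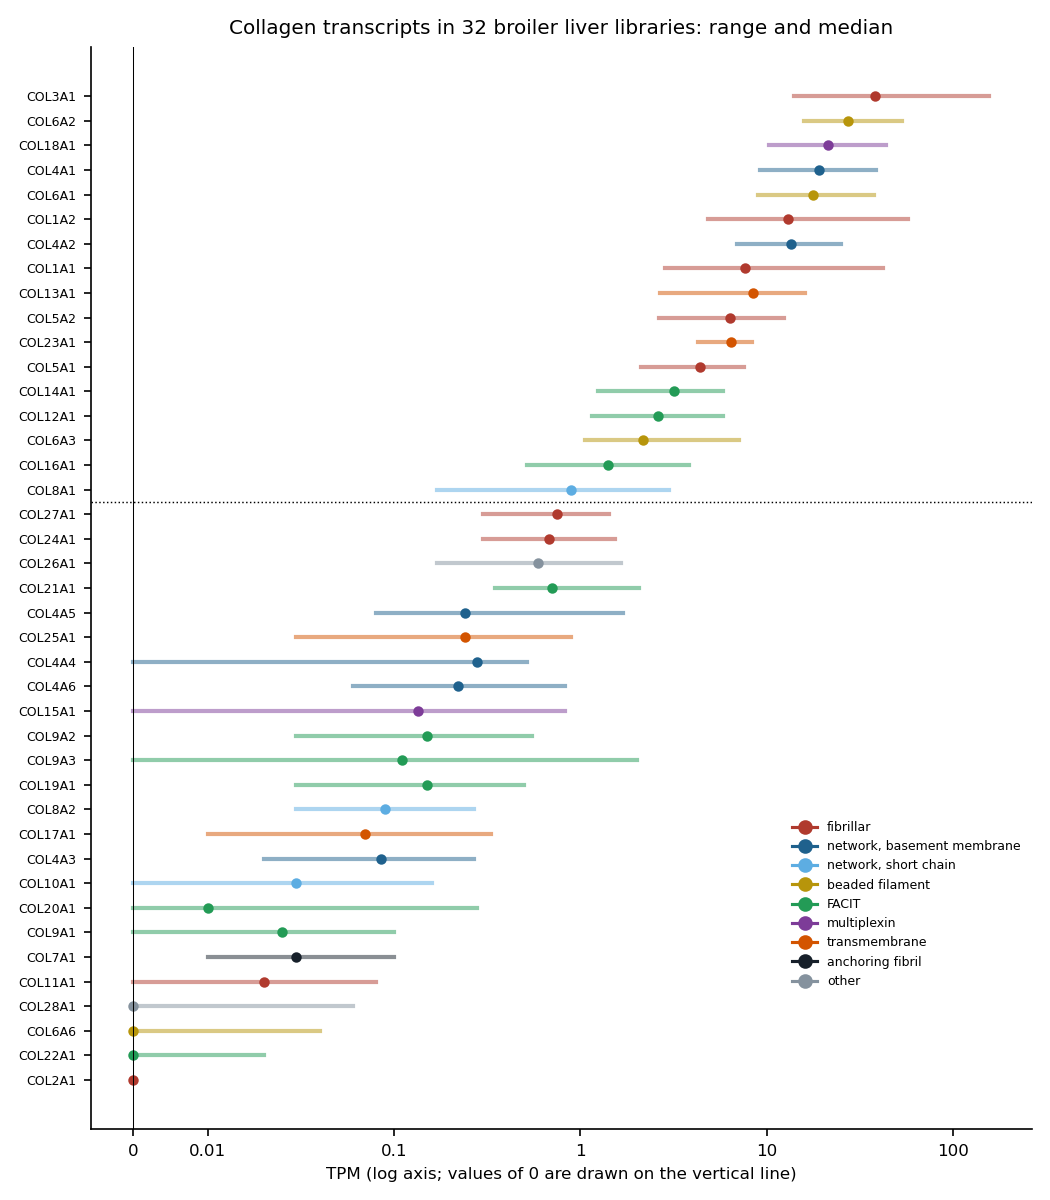
Level of each of the 41 collagen genes in 32 liver libraries, in TPM on a log axis. Lines run from the lowest to the highest library, points are medians, colors give the structural group, and the dotted line separates the 17 tested genes (above) from the 24 others. COL3A1 reached 156 TPM, while COL2A1 was listed at 0 in all libraries.

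The liver collagen transcripts were dominated by fibrillar, beaded filament and basement membrane chains. The 9 fibrillar genes took 39.5% of the summed mean collagen level of 224.5 TPM, the 4 type VI genes 22.5%, the 6 type IV genes 16.3%, the 2 multiplexins (collagens whose helix is broken many times) 9.91%, the 4 transmembrane collagens 6.81% and the 10 FACIT genes 4.08%. FACIT stands for fibril-associated collagens with interrupted triple helices. The 8 most abundant genes, each with a mean of at least 10 TPM, held 80.7% of the total.

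Among the fibrillar chains, COL3A1, the single chain of type III, was the most abundant collagen transcript, with a mean of 50.0 ± 33.7 TPM (SD, n = 32). It was the highest collagen in 26 of the 32 libraries, COL18A1 was the highest in 4 and COL6A2 in 2. The type I chains followed, COL1A2 at 15.7 ± 9.89 TPM and COL1A1 at 10.0 ± 7.39 TPM. COL5A2 and COL5A1, chains of the type V collagen that sits inside type I fibrils, averaged 6.67 and 4.63 TPM. COL27A1 and COL24A1 were at 0.806 and 0.755 TPM. The cartilage fibrillar genes COL11A1 (0.0206 TPM) and COL2A1 (listed at 0 throughout) made up the rest.

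Transcripts of the chains of one molecule stood at uneven levels. A type I molecule usually holds more alpha-1 than alpha-2 chains, but COL1A2 exceeded COL1A1 in all libraries, with a ratio of 1.68 ± 0.285 (range 1.02 to 2.29). For type V, COL5A2 stood at 1.47 ± 0.246 times COL5A1. For type IV, where alpha-1 chains outnumber alpha-2 chains in the common molecule, COL4A1 stood at 1.42 ± 0.174 times COL4A2 (range 1.02 to 1.73). A type VI molecule is built from an alpha-1, an alpha-2 and an alpha-3 chain. COL6A2 stood at 1.53 ± 0.260 times COL6A1, and COL6A1 at 7.37 ± 1.62 times COL6A3. These ratios rest on the transcript lengths that the authors' quantification used, which are not given in the sources used here.

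Type VI and type IV chains made up most of the remaining abundant transcripts. COL6A2 averaged 28.5 TPM, COL6A1 19.3 TPM and COL6A3 2.84 TPM, while COL6A6 was listed at 0 in 27 libraries. COL4A1 averaged 20.98 TPM and COL4A2 14.8 TPM. The other type IV chains, which in mammals replace these chains in specialized basement membranes such as that of the kidney glomerulus, were low, with COL4A5 at 0.320, COL4A4 at 0.274, COL4A6 at 0.269 and COL4A3 at 0.0919 TPM.

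COL18A1, which encodes the multiplexin from which the fragment endostatin is released, was the third most abundant at 22.05 ± 6.00 TPM, and hepatocytes are a known source of it in human liver. The other multiplexin, COL15A1, averaged 0.199 TPM. Of the transmembrane collagens, COL13A1 (8.54 TPM) and COL23A1 (6.37 TPM) were well above COL25A1 (0.274 TPM) and COL17A1 (0.0972 TPM), an epidermal adhesion protein. Among the FACIT genes COL14A1 (3.34 TPM), COL12A1 (2.84 TPM) and COL16A1 (1.69 TPM) were tested. COL21A1 (0.709 TPM), COL19A1 (0.162 TPM), COL20A1 (0.0341 TPM), COL22A1 (above 0 in 1 library) and the cartilage type IX genes COL9A2, COL9A3 and COL9A1 (0.179, 0.169 and 0.0328 TPM) were not. The short-chain collagens were COL8A1 (1.07 TPM), a vessel wall collagen, COL8A2 (0.102 TPM) and COL10A1 (0.0472 TPM), a product of hypertrophic cartilage. COL26A1 (0.721 TPM), COL28A1 (0.0116 TPM) and the anchoring fibril gene COL7A1 (0.0322 TPM) completed the set.

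The collagen genes differed widely between libraries of the same diet. The SD of log2(TPM + 1) within diets had a median of 0.44 over the 17 tested collagen genes and 0.33 over all tested genes, and 16 of the 17 lay above the value for all tested genes. The fold ranges that follow run over all 32 libraries and so across the diets. COL3A1 varied 11.1-fold between its lowest and highest library, COL1A1 14.7-fold and COL1A2 11.9-fold. The low COL8A1 had the widest fold range of the tested genes, 17.6-fold (0.17 to 2.99 TPM). COL23A1 varied least among the tested genes, 1.93-fold (4.29 to 8.30 TPM). Differences between the 4 diet means accounted for 1.16% to 17.4% of the variance of a collagen gene (median 5.23%), against a median of 6.22% over all tested genes.

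**Figure D2:**
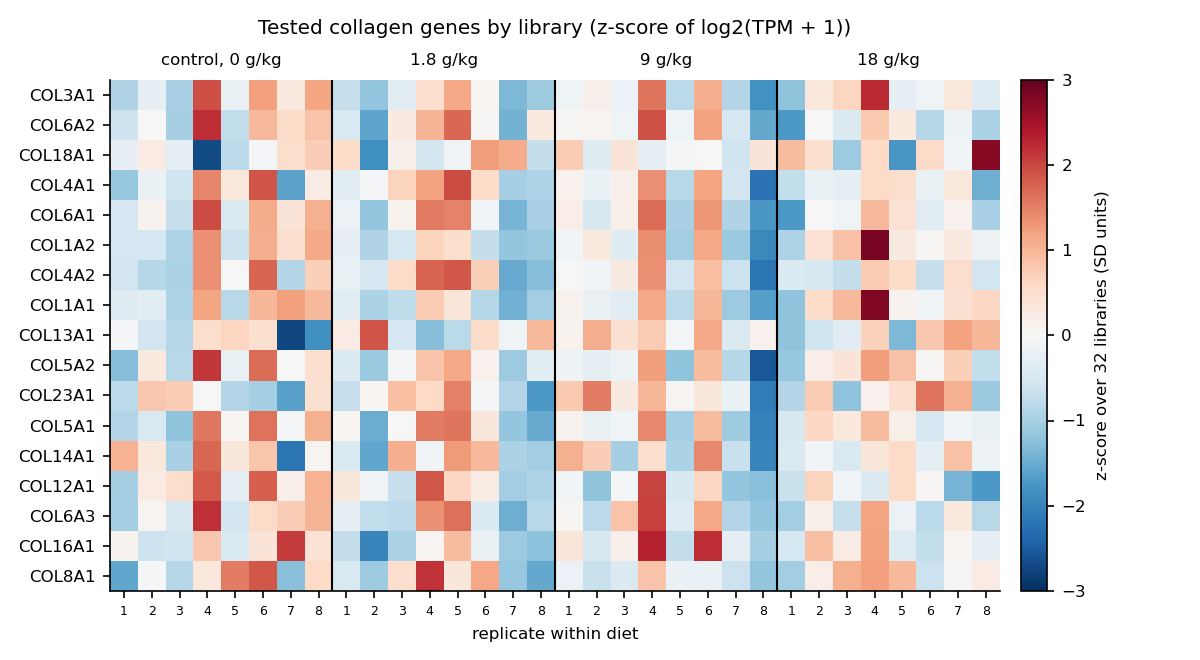
The 17 tested collagen genes (rows, by mean level) in the 32 libraries (columns, by diet and replicate number). Color gives log2(TPM + 1) as a z-score over the 32 libraries. Replicate 4 of the control, 9 g/kg and 18 g/kg diets is high and 9 g/kg replicate 8 is low in most rows, while COL18A1 and COL13A1 follow other patterns.

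The first question of the design is whether added arginine changed these transcripts. With limma on log2(TPM + 1), 0 of the 17 tested collagen genes were called at 1.8, 9 or 18 g/kg against control at a Benjamini-Hochberg adjusted p below 0.05, where the background was 0% of 11339 genes at each dose. In the test of any difference among the diets and in the linear trend on dose, 0 collagen genes were called as well, with 0% of all tested genes called in both. At an unadjusted p below 0.05, limma gave 0 of 17 collagen genes in each of the 5 tests of this fit, though not in every alternative fit. The background at that threshold was 2.34% of genes at 1.8 g/kg, 4.87% at 9 g/kg, 2.44% at 18 g/kg, 3.18% for any difference and 2.03% for the trend. For none of the 17 did the 8 libraries of an arginine diet lie wholly above or below the 8 control libraries, against 0%, 0% and 0.00882% of all tested genes at 1.8, 9 and 18 g/kg.

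More collagen genes had a lower than a higher mean under arginine, by small amounts, and the counts moved with the libraries and the model used. At 1.8 g/kg, 5 of the 17 were higher than control, where 59% of all tested genes were higher. At 9 g/kg it was 4 of 17 (50.6% of all tested genes) and at 18 g/kg 6 of 17 (55.6%). The median log2 difference of the collagen genes was -0.13, -0.11 and -0.05 at 1.8, 9 and 18 g/kg, against 0.03, 0.00 and 0.02 over all tested genes. Single libraries moved these counts. At 1.8 g/kg, 3 of 17 were higher without control replicate 7 or without 1.8 g/kg replicate 5, where 6028 and 5986 of all 11339 tested genes were higher. At 9 g/kg, 8 were higher without control replicate 4 or without 9 g/kg replicate 8, where 5685 and 6694 of all 11339 were higher. At 18 g/kg, 10 were higher without control replicate 4 (median 0.05) and 12 without control replicate 6 (median 0.03), so the direction at 18 g/kg turned with 1 library. Of all 11339 tested genes, 6245 and 6322 were higher in these fits. With the summed stellate cell and fibroblast markers as a covariate, an alternative chosen after seeing the data, 10, 9 and 12 of the 17 were higher at 1.8, 9 and 18 g/kg. The count over all tested genes in that fit is not given here, so these 3 counts have no background. The medians of the 17, 0.04, 0.02 and 0.05, were near 0, and the part of these markers in the differences was not tested. With library weights 3, 4 and 5 were higher, with medians of -0.32, -0.25 and -0.18. Of all 11339 tested genes, 6111, 6073 and 6777 were higher with weights, with medians of 0.02, 0.02 and 0.04.

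The type III and type I genes had the largest SD of log2(TPM + 1) within diets of the 17. It was 0.85 for COL3A1, 0.75 for COL1A1 and 0.68 for COL1A2, against 0.41 for both type V genes. COL3A1 ran from 23.2 to 131 TPM in control livers (median 43.6), from 18.6 to 83.0 TPM at 1.8 g/kg (median 31.045), from 14.1 to 107 TPM at 9 g/kg (median 38.2) and from 20.3 to 156 TPM at 18 g/kg (median 44.4). All 4 ranges overlapped, and the highest library stood well above the median in each diet. The log2 differences from control were -0.54 ± 0.40 (SE) at 1.8 g/kg, -0.34 ± 0.40 at 9 g/kg and -0.08 ± 0.40 at 18 g/kg, with limma adjusted p of 1, 0.966 and 1. COL1A1 ran from 4.65 to 17.4 TPM in control livers (median 10.9), from 3.28 to 13.2 TPM at 1.8 g/kg (median 5.05), from 2.85 to 16.7 TPM at 9 g/kg (median 7.08) and from 3.87 to 41.8 TPM at 18 g/kg (median 11.4). It had the smallest unadjusted p of the 17 for any difference among the diets (unadjusted p = 0.112, limma adjusted p = 1.00). Against control its log2 difference was -0.61 ± 0.36 at 1.8 g/kg, where 2 of 8 libraries were above the control mean, -0.37 ± 0.36 at 9 g/kg and 0.22 ± 0.36 at 18 g/kg. Without 18 g/kg replicate 4 the last value was -0.03. COL1A2 followed its partner, with medians of 14.1, 9.95, 12.3 and 15.9 TPM at 0, 1.8, 9 and 18 g/kg and log2 differences of -0.43 ± 0.33, -0.27 ± 0.33 and 0.19 ± 0.33 at the 3 doses.

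**Figure D3:**
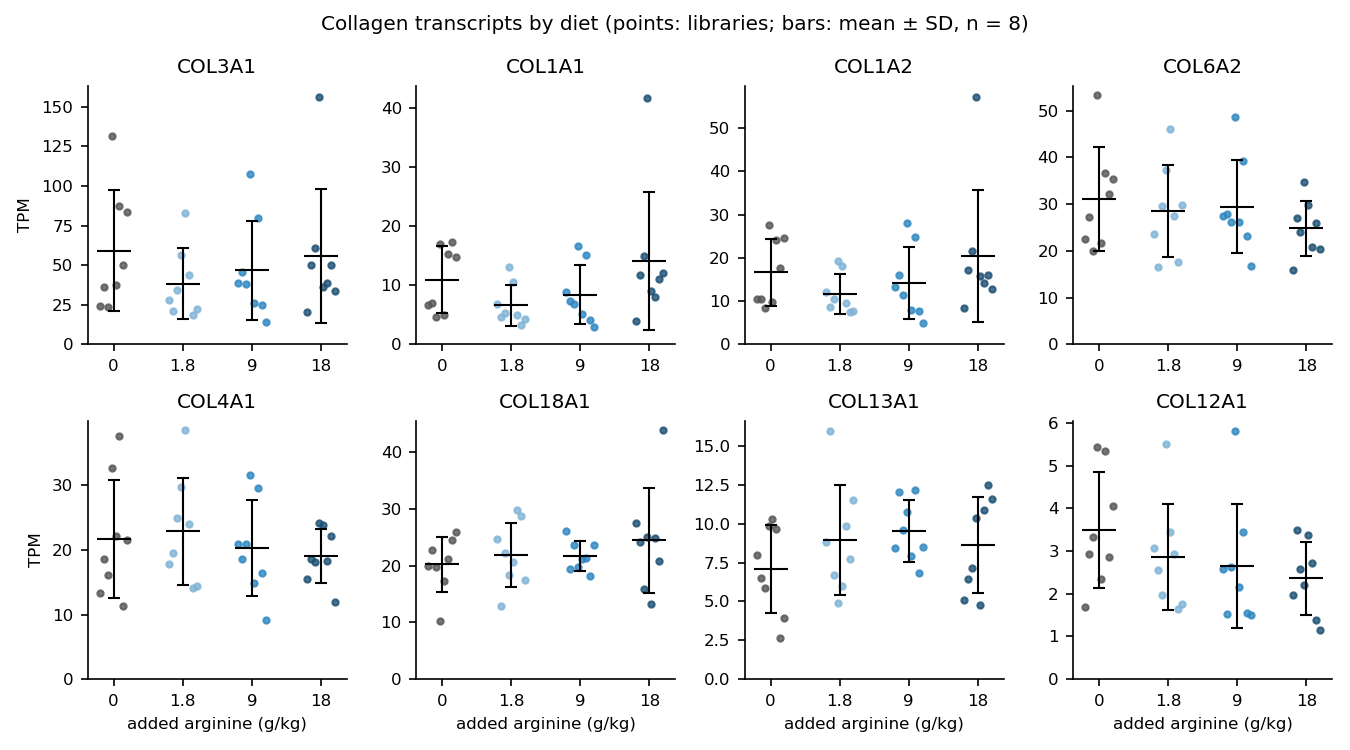
TPM of 8 collagen genes by added arginine (0, 1.8, 9 and 18 g/kg). Each point is a library, and bars give the mean ± SD of the 8 libraries of a diet. The diets overlap in every panel, and single libraries reach 156 TPM for COL3A1, 41.8 TPM for COL1A1 and 57.1 TPM for COL1A2 at 18 g/kg.

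At 1.8 and 9 g/kg the tested basement membrane and beaded filament chains differed less from control than COL3A1, COL1A1 and COL1A2. At 18 g/kg the tested beaded filament chains differed more than these genes. COL4A1 ran from 11.4 to 37.6 TPM in control livers (median 20.035), from 14.2 to 38.5 TPM at 1.8 g/kg (median 21.8), from 9.17 to 31.6 TPM at 9 g/kg (median 19.7) and from 12 to 24.2 TPM at 18 g/kg (median 18.5). Its log2 differences were 0.10, -0.08 and -0.11 (SE 0.23 each), and those of COL4A2 were 0.05, -0.08 and -0.08 (SE 0.22 each). Each of these 6 values took the other sign with some 1 library left out. COL6A2 ran from 19.9 to 53.4 TPM in control livers (median 29.7), from 16.6 to 46.2 TPM at 1.8 g/kg (median 28.5), from 16.8 to 48.7 TPM at 9 g/kg (median 26.8) and from 15.9 to 34.6 TPM at 18 g/kg (median 24.9). Its difference at 18 g/kg was -0.28 ± 0.21, with 2 of 8 libraries above the control mean, and that of COL6A1 was -0.31 ± 0.26, also with 2 of 8 (limma adjusted p = 1 for both). At 1.8 and 9 g/kg COL6A2 differed by -0.13 and -0.07 and COL6A1 by -0.24 and -0.24.

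COL18A1, the abundant multiplexin, had higher means at each dose. It ran from 10.3 to 25.9 TPM in control livers (median 20.6), from 12.96 to 29.7 TPM at 1.8 g/kg (median 21.4), from 18.1 to 26.2 TPM at 9 g/kg (median 21.3) and from 13.3 to 43.9 TPM at 18 g/kg (median 24.6). The log2 differences were 0.11 ± 0.19, 0.13 ± 0.19 and 0.23 ± 0.19 at 1.8, 9 and 18 g/kg. Without control replicate 4, the lowest library, they were -0.02 at 1.8 g/kg and 0.00 at 9 g/kg. Without 18 g/kg replicate 8, the highest library, the difference at 18 g/kg was 0.10.

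COL13A1, COL12A1 and COL16A1 were closest to the unadjusted threshold. COL13A1, a transmembrane collagen of cell adhesion sites, ran from 2.67 to 10.3 TPM in control livers (median 7.25), from 4.92 to 15.96 TPM at 1.8 g/kg (median 8.29), from 6.86 to 12.2 TPM at 9 g/kg (median 9.04) and from 4.8 to 12.5 TPM at 18 g/kg (median 8.77). At 9 g/kg it was 0.45 ± 0.23 above control on the log2 scale, with 8 of 8 libraries above the control mean (unadjusted p = 0.0562, limma adjusted p = 0.956). Without control replicate 7, the lowest library, this difference was 0.30. COL12A1, a FACIT found on type I fibers, had lower means at each higher dose, with 3.499 ± 1.35, 2.86 ± 1.25, 2.65 ± 1.45 and 2.36 ± 0.852 TPM at 0, 1.8, 9 and 18 g/kg (SD, n = 8 each). Its ranges overlapped, since control libraries ran from 1.70 to 5.44 TPM and those at 18 g/kg from 1.15 to 3.5 TPM. The slope was -0.019 ± 0.010 log2 units per g/kg (SE; unadjusted p = 0.0819, limma adjusted p = 1.00), and the difference at 18 g/kg was -0.41 ± 0.21 (unadjusted p = 0.0661, limma adjusted p = 1). COL16A1, another fibril-associated chain, averaged 1.23 ± 0.563 TPM at 1.8 g/kg and 1.87 ± 0.780 TPM in control livers, a log2 difference of -0.36 ± 0.19 with 1 of 8 libraries above the control mean (unadjusted p = 0.0646, limma adjusted p = 1). At 9 and 18 g/kg it differed by 0.02 and -0.09.

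The size of difference that these libraries could resolve depended on the gene. The 95% interval of a log2 difference reached 0.24 to either side for COL23A1, 0.44 in the median and 0.82 for COL3A1. All 51 intervals (17 genes at 3 doses) held 0. For COL3A1 the interval at 1.8 g/kg ran from -1.37 to 0.28, and for COL1A1 from -1.34 to 0.12, so a marked fall in these fibrillar genes was not detectable from this spread, nor was its absence shown.

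**Figure D4:**
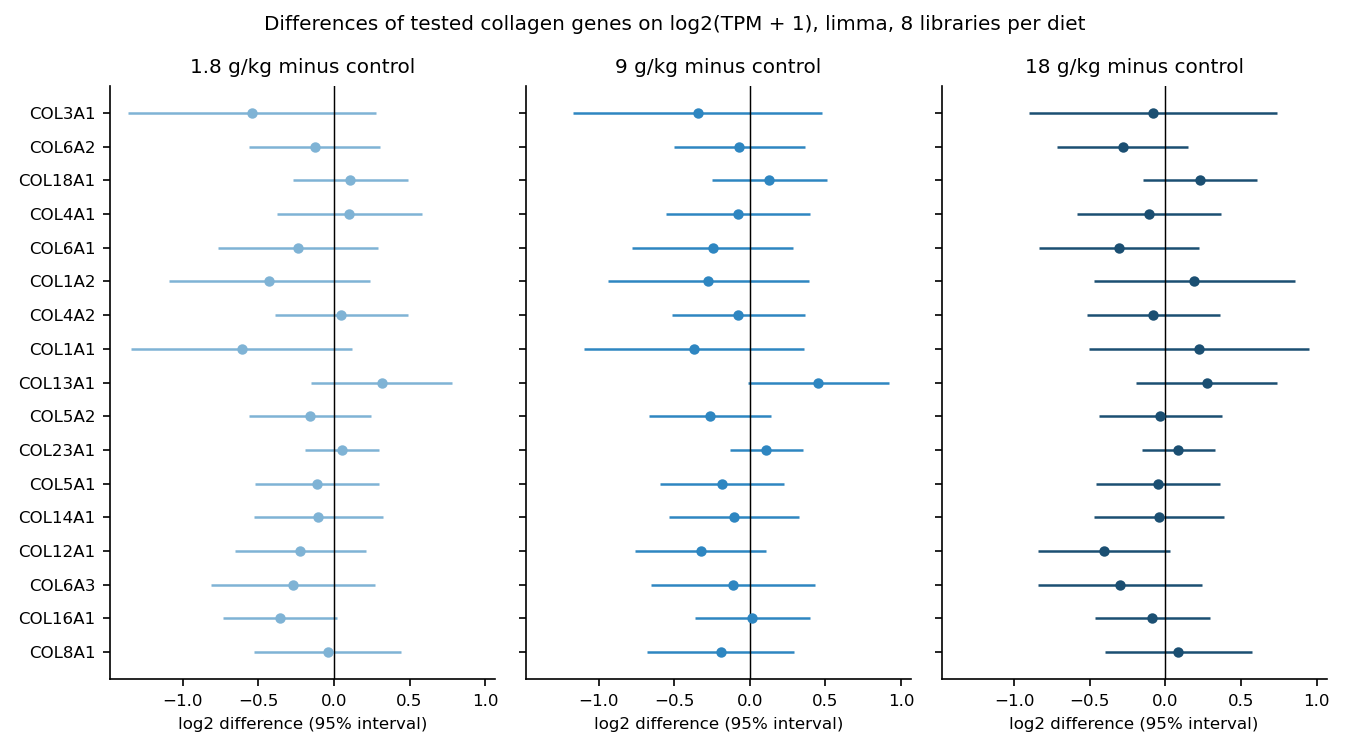
Log2 difference from control on the log2(TPM + 1) scale for the 17 tested collagen genes at 1.8, 9 and 18 g/kg of added arginine, from limma with 8 libraries per diet. Points are estimates and lines are 95% intervals. All 51 intervals hold 0, and they are widest for COL3A1, COL1A1 and COL1A2.

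Although the diets did not separate them, most collagen genes varied together from library to library. Over all 136 pairs of the 17 tested genes, 93 were correlated on log2(TPM + 1) at an adjusted p below 0.05 (permutation test, 100000 resamples, Benjamini-Hochberg over the 136), and 93 of these were positive. COL18A1 and COL13A1 passed with 0 of their 16 partners each and COL23A1 with 5. The other 14 genes, a set defined after these values were seen, passed in 88 of their 91 pairs, with a median Pearson r of 0.734. The medians within the diets were 0.779 in control livers and 0.851, 0.905 and 0.714 at 1.8, 9 and 18 g/kg. These pairs share libraries, so they are not independent of each other. The share of all gene pairs that would pass was not counted, so these counts have no background.

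Chains of one molecule were closely correlated. COL1A1 and COL1A2 had r = 0.964 and Spearman rho = 0.957 over 32 libraries (permutation p = 1e-05 for each, the smallest that 100000 resamples can give, adjusted 1.6e-05 over 16 pairs). Within the diets r was 0.944 in control livers and 0.985, 0.979 and 0.958 at 1.8, 9 and 18 g/kg, and it was 0.946 without the 2 libraries farthest from the COL1A1 median. COL4A1 with COL4A2 (r = 0.929, rho = 0.919), COL6A1 with COL6A2 (0.927, 0.881), COL6A1 with COL6A3 (0.921, 0.910) and COL5A1 with COL5A2 (0.889, 0.864) had the same permutation and adjusted p, and r of 0.857 to 0.905 without the 2 farthest libraries. Their lowest value within a diet was 0.703, for the type V pair at 18 g/kg. Type III followed type I in the same way: COL1A2 with COL3A1 had r = 0.946 and rho = 0.935, and COL1A1 with COL3A1 0.899 and 0.892. COL1A1 with COL6A1 had r = 0.778 and rho = 0.807. These 3 pairs had the same permutation and adjusted p as the type I pair, r of 0.933, 0.864 and 0.790 without the 2 farthest libraries, and a lowest value within a diet of 0.768, for COL1A1 with COL6A1 at 18 g/kg. COL1A1 with COL4A1 had r = 0.483 and rho = 0.500 (permutation p = 0.00526 and 0.00414, adjusted 0.00701 and 0.00552), 0.427 without the 2 farthest libraries, and 0.327, 0.797, 0.959 and 0.409 within the diets at 0, 1.8, 9 and 18 g/kg. COL3A1 with COL4A1 stood at r = 0.741 and rho = 0.736, with the same p-values as the type I pair, 0.748 without the 2 farthest libraries and 0.578 to 0.965 within the diets.

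Collagen genes that lie next to each other were also compared. By the RefSeq gene table of assembly GRCg7b, used for neighbors only, COL4A1 and COL4A2 had no protein-coding gene between them, nor had COL6A1 and COL6A2, or COL3A1 and COL5A2. The last pair encodes chains of different molecules and had r = 0.907 and rho = 0.909 (permutation p = 1e-05, adjusted 2e-05 over 2 pairs; 0.900 without the 2 farthest libraries, 0.787 to 0.976 within diets). COL18A1 lies 2 protein-coding genes from COL6A1, with r = -0.268 and rho = -0.142 (permutation p = 0.139 and 0.437, adjusted 0.139 and 0.437). This was -0.0201 without the 2 farthest libraries, and -0.378, 0.00497, -0.0403 and -0.522 within the diets at 0, 1.8, 9 and 18 g/kg. COL4A5 and COL4A6, also neighbors but below the testing limit, had r = 0.871. The neighbors COL4A3 and COL4A4 had r = 0.146, and COL19A1 and COL9A1 had r = -0.13, all given as descriptions of low values. COL6A1 had r = 0.911 with COL5A2 and 0.910 with COL5A1, neither of which lies within 5 protein-coding genes of it. The part of gene order in these relations was not tested.

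The shared pattern also ran with the level of stromal markers. A list of 23 stellate cell and fibroblast markers without collagens, such as the proteoglycan DCN and the pericyte gene RGS5, summed to 240 to 619 TPM in control livers and to 205 to 522, 194 to 597 and 233 to 581 TPM at 1.8, 9 and 18 g/kg. As a sum of TPM it is weighted toward its most abundant genes, DCN (mean 100 TPM) and RGS5 (80.4 TPM). DCN is also among the fibril partners below. Of the 17 collagen genes, 15 were correlated with this sum at an adjusted p below 0.05 (permutation test, over 85 relations of 17 genes with 5 marker sums), all positively, with a median r of 0.771 over the 17. COL3A1 had r = 0.917 and rho = 0.889 (permutation p = 1e-05 each, adjusted 8.5e-05 and 9.44e-05), 0.895 without the 2 farthest libraries and 0.839 to 0.977 within the diets. The share of all tested genes that would pass with this or another marker sum was not counted, so such counts have no background. The part of these markers in the collagen levels was not tested beyond these relations. The markers themselves did not separate the diets, with 0 of 17 tested called at any dose by limma and 5, 7 and 9 of 17 higher than control at 1.8, 9 and 18 g/kg. Of all tested genes, 59%, 50.6% and 55.6% were higher. COL1A1 also followed single genes of the stromal list, the keratan sulfate proteoglycan LUM (r = 0.725, rho = 0.783, permutation p = 1e-05, adjusted 1.6e-05; 0.682 without the 2 farthest libraries and 0.612 to 0.853 within diets) and the mural cell receptor PDGFRB (r = 0.607, rho = 0.646, permutation p = 0.00016 and 8e-05, adjusted 0.000233 and 0.000116). The PDGFRB relation was 0.888, 0.678 and 0.938 within the diets at 0, 1.8 and 9 g/kg and -0.101 at 18 g/kg, so it did not hold within the highest dose. With ALB, COL1A1 had r = 0.117 and rho = 0.112 (permutation p = 0.524 and 0.541, adjusted 0.524 and 0.541), -0.0254 without the 2 farthest libraries and 0.186, -0.470, 0.0608 and 0.761 within the diets at 0, 1.8, 9 and 18 g/kg.

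COL13A1, COL18A1 and COL23A1 stood apart from the shared pattern, each in its own way. COL13A1 had r = 0.0245 with the stromal sum (rho = 0.0499, adjusted permutation p = 0.896 and 0.805) and r = 0.638, rho = 0.540 with the sum of 22 endothelial markers (permutation p = 0.00013 and 0.00182, adjusted 0.000737 and 0.0103), 0.521 without the 2 farthest libraries and 0.827, 0.362, 0.452 and 0.886 within the diets at 0, 1.8, 9 and 18 g/kg. It was the only one of the 17 that passed with that sum. With COL3A1, COL13A1 had r = 0.0149 over the 32 libraries, but the sign differed between diets. The values were 0.0884, -0.676, 0.72 and 0.39 within the diets at 0, 1.8, 9 and 18 g/kg. The endothelial sum ran from 205 to 400 TPM in control livers and from 270 to 525, 284 to 462 and 277 to 344 TPM at 1.8, 9 and 18 g/kg. Of its 20 tested markers, 20, 20 and 18 were higher than control at 1.8, 9 and 18 g/kg, where 59%, 50.6% and 55.6% of all tested genes were higher. Limma called 0 of these markers, and their part in the COL13A1 differences above was not tested. The markers share libraries, so they are not independent of each other, and counts with a library left out are not given here. Control replicate 7 had the lowest LYVE1 (2.75 TPM) and STAB1 (4.55 TPM) of the 32 libraries. Its PECAM1 (10.56 TPM) was inside the range of the others. COL18A1 had r = -0.126 with the stromal sum (rho = -0.0667, adjusted permutation p = 0.589 and 0.741) and -0.236 with the hepatocyte sum (rho = -0.0852, adjusted permutation p = 0.280 and 0.684). COL23A1 had r = 0.481 with the stromal sum (rho = 0.458, adjusted permutation p = 0.0224 and 0.0341; 0.326 without the 2 farthest libraries, and 0.198, 0.797, 0.754 and 0.238 within the diets at 0, 1.8, 9 and 18 g/kg).

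**Figure D5:**
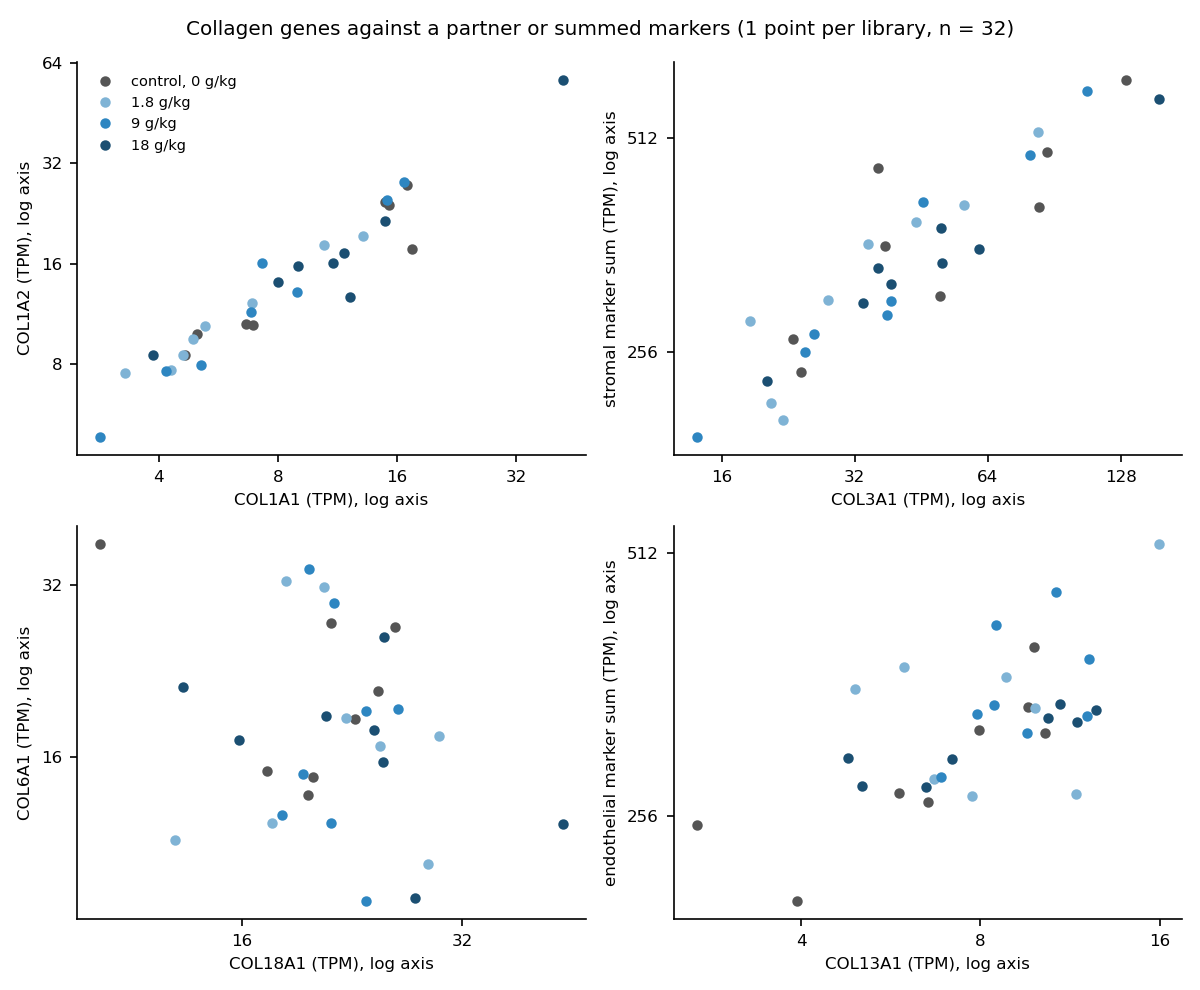
Each point is 1 of the 32 libraries, colored by diet, on log axes in TPM. COL1A1 and COL1A2 (r = 0.964) and COL3A1 and the summed stromal markers (r = 0.917) lie along a line, COL13A1 and the summed endothelial markers (r = 0.638) more loosely, and COL18A1 and its genomic neighbor COL6A1 (r = -0.268) do not.

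Searching all 11338 other tested genes for those whose level followed each collagen most closely, with diet means removed, gave the following genes. COL3A1 was closest to COL1A2 (r = 0.955). Outside the collagens it was closest to the phosphodiesterase PDE3A (0.936), then to CLEC3B (0.906) and ELN (0.906), which encodes elastin. COL4A1 was closest to ADAMTS2 (0.943), a procollagen peptidase, ahead of COL4A2 (0.929). COL6A2, COL6A1, COL5A2 and COL5A1 all had FBN1 (fibrillin) as the closest gene outside the collagens, at 0.877, 0.918, 0.930 and 0.919. COL12A1 was closest to the chemokine CXCL12 (0.824). COL14A1 was closest to HVCN1 (0.827), a proton channel gene, and SEMA5B (0.827), a semaphorin. COL8A1 was closest to VIPR2 (0.796), a receptor of vasoactive intestinal peptide, and COL16A1 had STUM (0.859) among its 3 closest. COL13A1 was closest to GJA4 (0.764), an arterial gap junction gene, and STAB1 (0.691), a scavenger receptor of sinusoidal endothelium. COL18A1 was closest to IL6R (0.705), the interleukin-6 receptor, and SLC2A9 (0.701), a urate transporter. COL23A1 was closest to UBP1 (0.940), EIF4G2 (0.893) and MAP2K1 (0.886), which are genes of transcription, translation and kinase signaling. These are the extremes of a search over 32 libraries and are given without a test.

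Genes that modify, export and bind collagen were next in the chain from gene to fiber, and limma called 0 of them at any dose. Of all tested genes, 59%, 50.6% and 55.6% were higher than control at 1.8, 9 and 18 g/kg. Of 22 tested genes of chain processing and export, 6, 8 and 8 were higher than control at these doses, with medians of -0.06, -0.12 and -0.07. The most abundant were P4HB, a subunit of prolyl 4-hydroxylase, at 764 ± 192 TPM and the prolyl isomerase PPIB at 576 ± 134 TPM. P3H3, a prolyl 3-hydroxylase family member, had the smallest unadjusted p of the list for any difference among the diets (unadjusted p = 0.0322, limma adjusted p = 1.00). P3H3 averaged 3.06, 2.73, 2.35 and 3.24 TPM at 0, 1.8, 9 and 18 g/kg. SERPINH1, the collagen chaperone, averaged 25.9, 32.1, 29.7 and 21.9 TPM at 0, 1.8, 9 and 18 g/kg, and its relation with COL1A1 did not pass (r = 0.246, rho = 0.277, permutation p = 0.176 and 0.127, adjusted 0.188 and 0.145; 0.220 without the 2 farthest libraries, and 0.253 to 0.873 within the diets). With diet means removed it passed (r = 0.490, rho = 0.501, adjusted permutation p = 0.00518 and 0.00523).

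Of 16 crosslinking and fibril partners, 4, 8 and 8 were higher at the 3 doses. FN1, which encodes fibronectin, averaged 142 TPM, and its difference at 1.8 g/kg was -0.34 ± 0.16 (unadjusted p = 0.0370, limma adjusted p = 1). DCN averaged 100.5 TPM. ELN stood at 8.47 TPM at 18 g/kg against 6.10 TPM in control livers (0.37 ± 0.23 on the log2 scale). Of 9 basement membrane partners 3, 5 and 3 were higher, among them NID1 (29.4 TPM), LAMC1 (15.9 TPM) and AGRN (7.47 TPM). Of 13 receptors and enzymes of breakdown 7, 5 and 7 were higher. TIMP3, an inhibitor of matrix metalloproteases, averaged 46.1, 64.7, 73.4 and 43.0 TPM at 0, 1.8, 9 and 18 g/kg (unadjusted p = 0.00765 for any difference, limma adjusted p = 1.00). MMP15 averaged 50.8 TPM and the collagen receptor DDR1 2.40 TPM.

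Of 12 TGF-beta signaling genes 5 were higher at each dose. The list holds ligands and receptors and also SMAD7, SKI and SKIL, which restrain the pathway. CCN2 averaged 10.2, 10.2, 15.7 and 19.3 TPM at 0, 1.8, 9 and 18 g/kg, TGFB1 5.37, 7.01, 7.21 and 7.91 TPM, and SMAD3 13.2 TPM over all libraries. At 18 g/kg TGFB1 was 0.44 ± 0.19 above control on the log2 scale (unadjusted p = 0.0272, limma adjusted p = 1) and CCN2 0.81 ± 0.43. Of 6 genes of ornithine and proline metabolism 4 were higher at each dose, PYCRL, ALDH4A1 and PEPD at all doses. The arginase gene ARG2 averaged 0.451 TPM, below the testing limit, and the symbol ARG1 was not in the expression table, so no arginase is among the 6. OAT, which makes the proline precursor from ornithine, averaged 80.8 ± 40.4 TPM, ALDH4A1, an enzyme of proline breakdown, 77.9 ± 12.4 TPM and PYCR1, the last step to proline, 23.1 ± 18.5 TPM. ALDH18A1 makes the same precursor from glutamate, and PEPD splits dipeptides that end in proline. The list differences had medians of 0.04, 0.08 and 0.04, against 0.03, 0.00 and 0.02 over all tested genes.

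The remaining marker lists were read for other tissue in the samples. Limma called 0 genes of each at any dose. Markers of a list share libraries, so they are not independent of each other. Of all tested genes, 59%, 50.6% and 55.6% were higher than control at 1.8, 9 and 18 g/kg. Of 7 tested cholangiocyte markers 2, 2 and 5 were higher than control at 1.8, 9 and 18 g/kg, of 16 hepatocyte markers 5, 3 and 4, of 12 macrophage markers 12 at each dose, and of 4 markers of skeletal muscle, cartilage and bone 1 at each dose. With the cholangiocyte sum 10 of the 17 collagen genes were correlated at an adjusted p below 0.05, a count without a background over all tested genes. For COL3A1 that relation did not hold within control livers, with r = -0.444, against 0.511 over the 32 libraries. Values within diets for the other genes with the cholangiocyte sum are not given here. With the hepatocyte sum 1 passed by Pearson (COL6A2, r = 0.442, rho = 0.397, adjusted permutation p = 0.0393 and 0.0748), which had r = 0.0512 and 0.0330 within the 1.8 and 9 g/kg diets, and with the macrophage sum 0.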

How the data were processed

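Poly(A)-selected, strand-specific liver RNA libraries were sequenced as paired reads, per the labels' protocols. The authors deposited 1 table of TPM for 25619 genes. fastp, HISAT2, StringTie and RSEM were used per the submitters' processing notes, while their versions and settings and the genome build are not given in the sources used here. TPM sums ran from 998707 to 999281 per library. Depth is unknown, so no counting interval is given.

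Libraries were grouped by the dose in the labels. The 11339 genes that averaged 1 TPM or more were tested on log2(TPM + 1), a scale that understates changes of low genes, with limma 3.58.1 in R 4.3.3 (1 mean per diet, eBayes with trend, Benjamini-Hochberg over all tested genes, adjusted p below 0.05, tests 2-sided). The fit was tested on simulated data. Correlations used 2-sided permutation tests with 100000 resamples (scipy 1.17.1). All 41 collagen genes matched RefSeq symbols of GRCg7b, and no coordinates or sequences are given. Collagen genes, gene lists and named genes were chosen with earlier results of these data known. Named in full were the 8 genes with the highest mean and, for each dose, the 2 with the smallest unadjusted p, and the 1 for the trend and for any difference. From the matrix, TGF-beta and ornithine and proline lists the 2 most abundant genes and the 2 with the smallest p for any difference were named, and the marker lists are given mainly by counts. Alternatives were other pseudocounts (0.1 and 5), filters, median-ratio rescaling, a replicate block, the W-linked transcript HINTW as a covariate, library weights and each library left out.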

Additional observations from a re-analysis of the deposited data

Results flagged for a closer look

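In 48 groups of 8 libraries (11 collagen genes and their sum in 4 diets), 2 held a library far from the other 7 by Dixon's gap test on the log2 scale, where chance alone gives 1 in 20 groups, or 2.4 here. The summed collagen level of 18 g/kg replicate 4 was 439.31 TPM, against 143.55 to 231.01 TPM in the other 7 libraries of that diet. In that library 8 of the 41 collagen genes reached their highest value of the 32 libraries, COL3A1, COL1A2 and COL1A1 of the tested genes and COL4A5, COL4A6, COL15A1, COL19A1 and COL20A1 of the others. The share of all genes at their highest there was not counted, so these counts have no background. The library also had the most genes above 0 TPM of the 32, 17341 (range 16069 to 17341). COL4A5 stood at 1.69 TPM there, against 0.08 to 0.68 TPM elsewhere, and COL1A1 at 41.8 TPM, against 2.85 to 17.4 TPM. Of 23 stellate cell and fibroblast markers 5 were also highest there, the contractile genes ACTA2 (75.6 TPM, against 7.13 to 32.5 TPM in the other 31 libraries), TAGLN (109 TPM, against 4.76 to 33.1 TPM), MYL9 (75.6 TPM, against 11.4 to 49.3 TPM), MYH11 (30.97 TPM, against 6.09 to 24.2 TPM) and DES (31.5 TPM, against 5.09 to 15.9 TPM). ELN stood at 18.0 TPM, against 2.87 to 10.5 TPM. The other markers of the stromal list were inside the range of the other libraries, among them PDGFRB at 4.35 TPM and DCN at 117 TPM. RGS5 was toward the low end in this library, at 32.18 TPM. In the others its median was 67.25 TPM and its range 27.16 to 200.88 TPM. The summed skeletal muscle, cartilage and bone markers (124.88 TPM, against 23.99 to 74.46 TPM) and the summed cholangiocyte markers (256.07 TPM, against 97.02 to 220.72 TPM) were also at their highest of the 32 there. SPP1, which is on both lists, stood at 94.2 TPM, against 18.2 to 69.21 TPM, and the skeletal actin ACTA1 at 24.17 TPM, against 0.14 to 7.75 TPM. Of 13 genes of the muscle, cartilage and bone list 3 were highest there, and of 10 cholangiocyte markers 2. The part of these markers in the collagen levels was not tested.

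COL18A1 was at 10.25 TPM in control replicate 4, against 17.3 to 25.92 TPM in the other 7 control libraries. The same library had the highest value of the 32 in 5 of the 17 tested collagen genes, COL6A2 (53.4 TPM) and COL6A1 (37.8 TPM) among them.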

How the results depend on the processing

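In every alternative run, 0 of the tested collagen genes were called in each comparison (lowest adjusted p of a collagen gene 0.343), the replicate block included. The labels do not say what the replicate number marks, and same-numbered libraries were not treated as pairs in the main fit. Their deviations had r from -0.305 to 0.367 over 48 pairs, 18 of them over 0.1. The median was 0.0297, against -0.00665 over 336 pairs with different numbers. Of 32 libraries, 6 correlated best with their own number. These values do not settle whether the number marks a shared block. At an unadjusted p below 0.05 the count of 0 of 17 did not hold in every alternative. Library weights gave 2, 2 and 1 of 17 at 1.8, 9 and 18 g/kg (635, 1508 and 890 of all 11339 tested genes). Median-ratio rescaling gave 1 each at 1.8 g/kg, at 18 g/kg and for the trend (333, 360 and 303 of all). With the stromal covariate the limma trend had unadjusted p of 0.0185 for COL1A2, 0.0268 for COL1A1 and 0.0440 for COL12A1. In the same limma fit COL1A1 had 0.0384 for any difference and COL4A1 0.0449 at 1.8 g/kg. The share of all tested genes in that fit is not given here, so these values have no background. The replicate block gave 1 of 17 at 18 g/kg (COL12A1, limma unadjusted p = 0.0260) and 1 for the trend (338 and 261 of all), and 0 genes were called. A pseudocount of 0.1 gave 1 at 1.8 g/kg (264 of all). Some fits with 1 library left out gave 1 or 2 of 17. Over all tested genes, 8 were called at 9 g/kg with library weights and 1 at 1.8 g/kg with the stromal marker sum as a covariate, an alternative chosen after seeing the data, and 0 in the remaining fits.

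No collagen difference was called, and a turned sign means that the direction of that difference depended on the setting. The cause was not tested. With the stromal covariate COL6A2 gave 0.0521 at 1.8 g/kg. At 9 g/kg COL6A2, COL4A1 and COL4A2 gave 0.0796, 0.0878 and 0.0684, and at 18 g/kg COL3A1, COL4A1 and COL4A2 gave 0.130, 0.00134 and 0.0137. With library weights COL4A1 and COL4A2 gave -0.140 each at 1.8 g/kg. Without both control replicate 7 and 18 g/kg replicate 4 (chosen after seeing the data) COL4A1 and COL4A2 gave -0.00809 and -0.0108 at 1.8 g/kg and COL1A2 -0.0142 at 18 g/kg. With HINTW as a covariate COL16A1 gave -0.00450 at 9 g/kg. With each library left out, signs turned for COL18A1 (-0.0162 to 0.204), COL4A1 (-0.0114 to 0.226) and COL4A2 (-0.0552 to 0.150) at 1.8 g/kg, for COL6A2 (-0.180 to 0.0479), COL4A1 (-0.187 to 0.0636), COL4A2 (-0.167 to 0.0502) and COL16A1 (-0.0935 to 0.119) at 9 g/kg, and for COL3A1 (-0.327 to 0.115), COL4A1 (-0.218 to 0.0162), COL1A2 (-0.0446 to 0.329), COL4A2 (-0.144 to 0.0198), COL1A1 (-0.0318 to 0.416) and COL16A1 (-0.150 to 0.0145) at 18 g/kg. The relation of COL1A1 with ALB gave -0.00664 after median-ratio rescaling and -0.0254 without the 2 farthest libraries.

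Of the 16 fixed relations 12 to 14 passed in each alternative. COL4A1 with PECAM1 (r = 0.385, rho = 0.386, permutation p = 0.0298 and 0.0299, adjusted 0.0366 and 0.0368; 0.226, 0.688, 0.419 and 0.353 within the diets at 0, 1.8, 9 and 18 g/kg) no longer passed after rescaling (r = 0.185) or without the 2 farthest libraries (0.292). COL18A1 with COL4A1 (r = -0.354, rho = -0.262, permutation p = 0.0472 and 0.147, adjusted 0.0539 and 0.157; -0.147 without the 2 farthest, and -0.737 to -0.0774 within the diets) passed after rescaling (-0.434). COL1A1 with SERPINH1 passed after centering on diets (0.490) and, by Spearman alone, without control replicate 7 (rho = 0.369, adjusted permutation p = 0.0476).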

Other observations

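The libraries numbered 4 had high collagen levels in all 4 diets. Their summed collagen TPM was 398 in control livers and 284, 371 and 439 at 1.8, 9 and 18 g/kg, which placed each among the 2 highest of its diet and among the 8 highest of the 32. Libraries numbered 1 ran from 144 to 212 TPM and those numbered 8 from 113 to 295 TPM. The labels do not say what the number marks, this was noticed after the values were seen, and it was not tested.

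Some low collagens had 1 library far above the others. COL9A3, a cartilage chain, was at 2.02 TPM in control replicate 7 and at most 0.31 TPM in the other 31 libraries, where its median was 0.11 TPM. COL9A1 and COL11A1, also cartilage chains, had their highest values in the same library, at 0.10 and 0.08 TPM (next library 0.08 and 0.05 TPM), while COL2A1 was listed at 0. COL9A2, another type IX chain, was at 0.12 TPM there, below its median of 0.15 TPM. The type IV gene COL4A3 also had its highest value there, at 0.27 TPM (next library 0.19 TPM). All of these genes lie below the testing limit. COL21A1 reached 2.07 TPM in control replicate 4, with the next library at 1.18 TPM.

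The ratio of COL3A1 to COL1A1 was 4.19 ± 0.757 at 18 g/kg and 5.41 ± 1.67 in control livers (SD, n = 8 each). It was 5.89 ± 1.80 at 1.8 g/kg and 5.46 ± 0.711 at 9 g/kg. The ranges overlapped, with 2.75 to 5.24 at 18 g/kg and 2.87 to 7.74 in control livers, and the difference was not tested.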
